A study of Mus musculus with 21 samples.

Results

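The genes described here were 6 genes of lymph node homing and tissue egress, Ccr7, S1pr1, Klf2, Cd69, Cxcr4 and Cd44. They were chosen by name for their known roles, out of 47643 genes in the deposited count table, and all 6 passed the low-count filter that 15300 genes passed. The assay was QuantSeq, which sequences the end of each transcript next to its poly(A) tail, and it was applied to splenic CD4+ T cells sorted from Tg4 Nr4a3-Tocky Il10-GFP (Tiger) mice. In these mice the Tg4 T cell receptor (TCR) transgene recognises a peptide of myelin basic protein (MBP), and Nr4a3-Tocky cells make a Timer protein from the Nr4a3 locus that is blue when new and turns red as it matures. The control group was unimmunised, and the 6 other groups received the [4Y] variant of the MBP peptide, at 0.8 or 80 μg, subcutaneously without adjuvant and were sampled at 4, 12 or 24 h, with 3 mice in each of the 7 groups.

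Every group, the control included, carried the Tg4, Nr4a3-Tocky and Il10-GFP alleles, so no comparison was with a mouse of polyclonal receptor repertoire. Per the study's methods, the sort gate moved with time, from Blue+Red- cells in the 4 h groups to Blue+Red+ in the 12 h groups and Blue-Red+ in the 24 h groups. Time after the peptide and the Timer gate therefore cannot be told apart. The gate for the control cells and the age of the mice are not given in the sources used here. Per the methods, the cells of each replicate mouse carried their own CD4 label, so that several mice could be sorted side by side. As the cells were measured in bulk, less RNA per cell and fewer cells with that RNA cannot be told apart for any gene below.

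CD4+ T cells recirculate between blood and lymphoid organs. CCR7 is the chemokine receptor that brings them into the T cell zone, and S1PR1 is the receptor for sphingosine 1-phosphate through which they leave. KLF2 is a transcription factor known to drive S1pr1 in resting T cells, and CD69 is an early activation antigen that binds S1PR1 and removes it from the cell surface. CXCR4 is the receptor for CXCL12, a retention signal in bone marrow and stroma, and CD44 is a hyaluronan receptor used in adhesion and as a marker of antigen-experienced T cells.

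The sequences upstream of Klf2 and Cxcr4 are shown because these genes moved together in the data, and that of Cd44 because it did not move with them. Each is the 250 bases before the start of the gene on its own strand, from RefSeq for assembly GRCm38.p6, where 3 of the 6 genes had an entry. Capitals mark CACCC or its reverse complement GGGTG, the core letters bound by KLF factors. Their positions are chr8:72318812-72319061 on the plus strand for Klf2, chr1:128592300-128592549 on the minus strand for Cxcr4 and chr2:102901666-102901915 on the minus strand for Cd44. The gene annotation used for the positions below begins Klf2 at 72319033, inside this window.
Klf2: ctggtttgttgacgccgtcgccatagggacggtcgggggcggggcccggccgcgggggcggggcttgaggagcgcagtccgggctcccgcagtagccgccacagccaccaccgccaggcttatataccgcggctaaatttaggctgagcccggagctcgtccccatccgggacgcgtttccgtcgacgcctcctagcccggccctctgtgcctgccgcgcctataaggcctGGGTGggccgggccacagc
Cxcr4: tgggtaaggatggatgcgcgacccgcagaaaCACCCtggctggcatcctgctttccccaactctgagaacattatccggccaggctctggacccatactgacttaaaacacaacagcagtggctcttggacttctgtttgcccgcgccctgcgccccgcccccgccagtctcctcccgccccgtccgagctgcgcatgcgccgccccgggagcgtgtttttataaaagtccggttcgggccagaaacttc
Cd44: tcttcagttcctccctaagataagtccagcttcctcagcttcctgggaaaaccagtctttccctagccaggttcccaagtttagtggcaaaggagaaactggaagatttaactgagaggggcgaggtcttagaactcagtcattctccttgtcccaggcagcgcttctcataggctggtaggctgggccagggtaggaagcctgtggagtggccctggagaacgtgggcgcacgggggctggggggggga
The Klf2 window held 1 match, 19 bases before the RefSeq start but past the start at 72319033 in the gene annotation. The Cxcr4 window held 1 match, 219 bases before its start, and the Cd44 window held none. Among 32851 windows of the same length, 52.0% held these letters, so a match was as common as its absence. Searched on both strands, neither the FOXO letters GTAAACA (3.17% of windows) nor the AP-1 letters TGANTCA (6.75%) were in any of the 3 windows. The NFAT letters GGAAA (55.6%) occurred once for Klf2, once for Cxcr4 and at 2 places for Cd44. No match of another motif overlapped the KLF letters in these windows, and these matches are a description of the letters, not binding sites.

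Library totals ran from 2352800 to 6244279 counts. All 8 listed CD4+ T cell markers had counts in every group, with a sum of 2834 to 3070 CPM (counts scaled to a common library total) in the control, 1771 to 1966 at 4 h, 1310 to 1681 at 12 h and 2460 to 2967 at 24 h. Like S1pr1 and Klf2 below, their sum was lower at 4 and 12 h than in the control, and its part in the values of these genes was not tested. The single markers did not all follow the sum. At 4 h with 80 μg, Trac had 765 to 876 CPM (649 to 748 in the control) and Cd2 261 to 314 (218 to 253). The other listed CD4+ T cell markers were lower than the control in that group, among them Cd4 at 46.4 to 73.4 CPM (293 to 334). Nr4a3 itself averaged 26.1 normalised counts (counts divided by the library's size factor) in the control. With 0.8 μg it averaged 3536, 562 and 54.2 in the order of the 3 times, and with 80 μg 3299, 154 and 9.09. The 2 regulatory T cell markers, Foxp3 and Ikzf2, had counts in every group, and most of their sum was Ikzf2. Ikzf2 had 42.4 to 83.4 CPM in the control, 15.8 to 27.2 at 4 h, 109 to 132 at 12 h with 0.8 μg and 31.1 to 42.8 with 80 μg, and 302 to 541 at 24 h with 0.8 μg and 133 to 160 with 80 μg. Foxp3 had 4.27 to 16.9 CPM in the control. At 4 h it had 0.574 to 1.84 with 0.8 μg and 3.85 to 5.77 with 80 μg, and its doses overlapped at 24 h (12.6 to 55.3 with 0.8 μg and 20.2 to 25.5 with 80 μg). The 2 CD8 T cell markers, Cd8a and Cd8b1, summed to 31.1 to 47.6 CPM in the control and 15.2 to 30.9 at 4 h. At 12 and 24 h their sum was higher with 0.8 μg (43.6 to 51.3 and 34.3 to 40.9) than with 80 μg (13.1 to 22.7 and 20.1 to 28.8). The 5 myeloid markers summed to 10.6 to 17.7 CPM in the control, 10.04 to 29.0 and 2.08 to 6.67 at 4 h with 0.8 and 80 μg, and 4.65 to 32.0 at 12 and 24 h, where the doses overlapped. The 4 erythroid markers varied within every group, over 5.31 to 195 CPM in all. The 6 B cell markers summed to 379 to 403 CPM in the control, 31.8 to 85.3 at 4 and 12 h, and at 24 h to 277 to 324 with 0.8 μg and 375 to 399 with 80 μg. They were thus low at 4 and 12 h, as S1pr1 and Klf2 were, and back in or near the control range at 24 h, as these genes were not. Most of the sum was Ighm (332 to 358 CPM in the control, 264 to 299 and 368 to 386 at 24 h with 0.8 and 80 μg). The other 5 B cell markers stayed at or under 26.2 CPM in every library, and Cd79a, a defining part of the B cell receptor, had 9 counts over the 3 control libraries and 5 counts over the 18 others. Replicate 3 of the 0.8 μg group at 12 h stood apart from its group, with a chi-square per degree of freedom over genes of 14.8 and 14.4 against the other two, which differed by 3.35 (3.47 to 9.49 for the pairs within the other groups). Without it the counts of the 6 genes called between groups did not change, while the genes that passed the test of dose by time rose from 2 to 4. With all libraries 10.4% of all genes passed that test, and the share without replicate 3 was not computed.

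**Figure D1:**
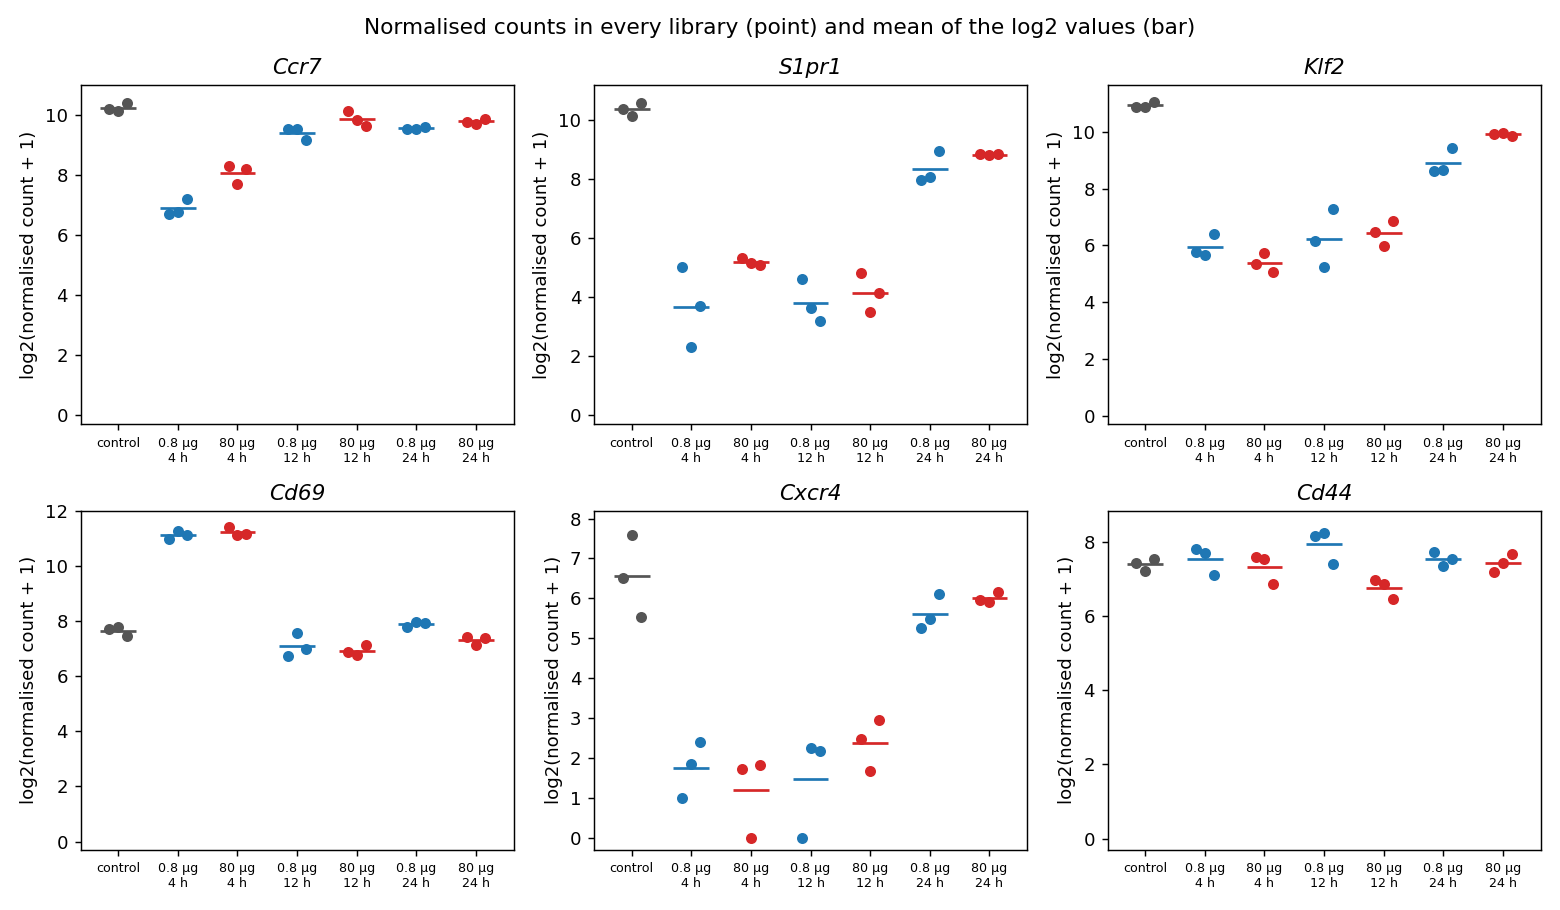
Normalised counts of the 6 genes on a log2 scale after adding 1, for the control (grey), 0.8 μg (blue) and 80 μg (red) at 4, 12 and 24 h. Each point is 1 of 21 libraries and each bar the mean of the 3 log2 values. S1pr1, Klf2 and Cxcr4 lie far under the control at 4 and 12 h and part of the way back at 24 h, Ccr7 is lowest at 4 h and stays under the control, Cd69 is far above the control at 4 h alone, and the group means of Cd44 lie between 64.5% and 150% of the control mean.

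The first question was how far these genes stood from the unimmunised level after the peptide. As the gate of the control cells is not given, the peptide and the Timer gate cannot be told apart in these fold changes. In the 6 comparisons with the control, a gene was called when the adjusted p of DESeq2's Wald test was under 0.05 and the shrunken log2 fold change was beyond 1 in either direction. The 6 comparisons share the same 3 control libraries. At 4 h, 5 of 6 genes were called with 0.8 μg and the same 5 with 80 μg, where 40.7% and 43.5% of all genes tested were called. At 12 h, 3 of 6 were called with either dose, against 37.7% and 37.9% of all genes. At 24 h, 3 of 6 were called with 0.8 μg and 1 of 6 with 80 μg, against 17.3% and 20.2%. By adjusted p alone, with no fold change limit, 5, 6 and 4 of the 6 genes passed at 4, 12 and 24 h with 0.8 μg, where 54.6%, 53.1% and 36% of all genes did, and 5, 6 and 3 with 80 μg, where 57.1%, 52.7% and 39.1% did.

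S1pr1 (ENSMUSG00000045092, chr3:115710433-115715072, minus strand, GRCm38), the egress receptor, fell to about 1% to 3% of the control at 4 and 12 h. The control libraries had 1322, 1129 and 1532 normalised counts. At 4 h there were 31.3, 3.95 and 11.9 with 0.8 μg and 39.4, 34.9 and 32.6 with 80 μg. The doses did not overlap at 4 h, and both lay far under the control. At 12 h the values were 23.5, 11.3 and 8.22 with 0.8 μg and 27.4, 10.3 and 16.5 with 80 μg, so the doses overlapped. At 24 h they were 251, 269 and 491 with 0.8 μg and 461, 444 and 454 with 80 μg, again overlapping and all under the control. As a percentage of the control mean, S1pr1 stood at 1.18, 1.08 and 25.4 at 4, 12 and 24 h with 0.8 μg and at 2.68, 1.36 and 34.1 with 80 μg. The shrunken log2 fold changes against the control were -6.05, -6.20 and -1.90 with 0.8 μg (SE 0.44, 0.44 and 0.40, DESeq2 adjusted p = 4.5e-40, 1.7e-42 and 1.8e-05). With 80 μg they were -5.0, -5.91 and -1.49 (SE 0.42, 0.43 and 0.40, DESeq2 adjusted p = 2.3e-31, 8.2e-41 and 0.00098), so S1pr1 was the only one of the 6 genes called in all 6 comparisons.

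Klf2 (ENSMUSG00000055148, chr8:72319033-72321656, plus strand), the transcription factor, followed a like course. It had 1862, 1879 and 2128 normalised counts in the control. At 4 h there were 53.5, 50.1 and 84.2 with 0.8 μg and 39.4, 52.3 and 32.6 with 80 μg. Both groups were more than an order of magnitude under every control library. At 12 h the values were 70.6, 36.9 and 156 with 0.8 μg, where replicate 3 was highest, and 86.8, 61.6 and 114 with 80 μg. At 24 h they were 397, 401 and 694 with 0.8 μg and 962, 999 and 923 with 80 μg, and here the doses did not overlap. The group means were 3.20%, 4.49% and 25.4% of the control at 4, 12 and 24 h with 0.8 μg, and 2.12%, 4.47% and 49.1% with 80 μg. Shrunken log2 fold changes against the control were -4.77, -4.32 and -1.91 with 0.8 μg and -5.34, -4.32 and -0.99 with 80 μg (SE 0.37 to 0.39, DESeq2 adjusted p from 3.6e-41 to 0.024). Without 0.8 μg 12 h replicate 3, the second of these was -5.06 (DESeq2 adjusted p = 3.3e-52). The value at 24 h with 80 μg was just under the fold change limit, and it was called with edgeR's quasi-likelihood test (-1.0, adjusted p = 7.7e-05) and with total-count scaling (-1.22, adjusted p = 0.0026).

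Cxcr4 (ENSMUSG00000045382, chr1:128588199-128592293, minus strand), the CXCL12 receptor, was almost absent at 4 and 12 h. The control libraries were spread widely, at 90.7, 193 and 45.7 normalised counts, a coefficient of variation of 68.7%. The summed erythroid markers of these 3 libraries had the same order (116, 191 and 27.6 CPM), as did the myeloid ones (13.2, 17.7 and 10.6 CPM). The other marker sets had other orders. The part of these cells in the Cxcr4 values was not tested. At 4 h there were 1.01, 2.63 and 4.32 with 0.8 μg and 2.31, 0 and 2.57 with 80 μg. At 12 h there were 0, 3.76 and 3.52 with 0.8 μg and 4.57, 2.20 and 6.80 with 80 μg. Every one of these 12 libraries was under the lowest control library. Summed over libraries, 310 counts in the control stood against 7, 5, 8 and 15 counts in those 4 groups. Scaled for depth, that was a fall of 44.6-fold (95% exact counting interval 21.4 to 112) and 71.5-fold (30.3 to 222) at 4 h and of 46.7-fold (23.4 to 109) and 27.1-fold (16.2 to 49.1) at 12 h. These intervals cover counting error only, and not the spread between mice. All 4 groups were called lower than the control (DESeq2 adjusted p from 9.3e-15 to 1.6e-13). At 24 h there were 37.0, 43.8 and 68.1 with 0.8 μg and 61.4, 59.6 and 70.3 with 80 μg, overlapping the control range. The call at 24 h with 0.8 μg (log2 fold change -1.10, SE 0.44, DESeq2 adjusted p = 0.039) was lost without control replicate 1 (adjusted p = 0.056), control replicate 2 (-0.40, adjusted p = 0.49), 0.8 μg replicate 1 (adjusted p = 0.16) or 0.8 μg replicate 2 (adjusted p = 0.12). It was also lost with the replicate number as a block (adjusted p = 0.053) and with only the compared groups in the fit (-0.94, DESeq2 adjusted p = 0.16). With 80 μg Cxcr4 was not called at 24 h (-0.75, adjusted p = 0.17), and it was called without control replicate 3 (-1.06, adjusted p = 0.027).

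Ccr7 (ENSMUSG00000037944, chr11:99144196-99155077, minus strand), the receptor for lymph node entry, was low at 4 h and most of the way back at 12 h. In the control it had 1173, 1139 and 1363 normalised counts. At 4 h there were 104, 108 and 147 with 0.8 μg and 317, 207 and 297 with 80 μg, and every 80 μg library was above every 0.8 μg library. At 12 h the values were 742, 751 and 576 with 0.8 μg and 1128, 923 and 802 with 80 μg. At 24 h they were 742, 740 and 788 with 0.8 μg and 879, 845 and 945 with 80 μg. The doses did not overlap at any of the 3 times, and no immunised library reached the lowest control library. As a percentage of the control mean, Ccr7 stood at 9.76, 56.3 and 61.8 at 4, 12 and 24 h with 0.8 μg and at 22.3, 77.6 and 72.6 with 80 μg. Against the control it was called at 4 h only, with shrunken log2 fold changes of -3.33 with 0.8 μg (SE 0.16, DESeq2 adjusted p = 1.9e-92) and -2.15 with 80 μg (SE 0.15, DESeq2 adjusted p = 6.4e-46). At 12 and 24 h it was lower by less than the fold change limit, by -0.82 and -0.69 with 0.8 μg and by -0.36 and -0.46 with 80 μg (DESeq2 adjusted p = 5.4e-08, 1.2e-05, 0.023 and 0.0050).

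Cd69 (ENSMUSG00000030156, chr6:129267325-129275436, minus strand), the antigen that removes S1PR1 from the cell surface, was the one gene of the 6 called higher than the control. The control had 209, 220 and 174 normalised counts. At 4 h there were 2011, 2474 and 2218 with 0.8 μg and 2711, 2211 and 2260 with 80 μg, 11.1 and 11.9 times the control mean. The 2 doses overlapped at 4 h. At 12 h the values had dropped to 105, 187 and 126 with 0.8 μg and 115, 108 and 138 with 80 μg, and at 24 h they were 218, 252 and 242 with 0.8 μg and 170, 141 and 166 with 80 μg. At 12 h only replicate 2 with 0.8 μg reached into the control range. The shrunken log2 fold changes against the control were 3.45 and 3.55 at 4 h (SE 0.15, DESeq2 adjusted p = 2.4e-116 and 1.5e-123 with 0.8 and 80 μg). At 12 h they were -0.52 and -0.75 (DESeq2 adjusted p = 0.0035 and 1.6e-05), under the fold change limit. At 24 h they were 0.23 and -0.35 (adjusted p = 0.26 and 0.069). Cd69 RNA was thus back at or under the control at 12 h, a time at which S1pr1 RNA was at 1.08% and 1.36% of it.

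Cd44 (ENSMUSG00000005087, chr2:102811141-102901665, minus strand), the hyaluronan receptor, was not called against the control in any of the 6 comparisons. The control had 173, 148 and 184 normalised counts. With 0.8 μg there were 222, 207 and 138 at 4 h, 286, 302 and 169 at 12 h and 209, 163 and 186 at 24 h. With 80 μg there were 191, 184 and 116 at 4 h, 124, 115 and 86.5 at 12 h and 146, 173 and 202 at 24 h. All groups but that of 80 μg at 12 h overlapped the control. At 12 h the shrunken log2 fold change against the control was 0.58 with 0.8 μg (SE 0.23, DESeq2 adjusted p = 0.022) and -0.62 with 80 μg (SE 0.23, DESeq2 adjusted p = 0.017), in opposite directions and both under the limit. At 4 and 24 h the values lay between -0.04 and 0.17 (adjusted p from 0.57 to 0.89). Counts of 3′ ends do not separate the splice forms of Cd44, so a change of isoform was not measured.

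**Figure D2:**
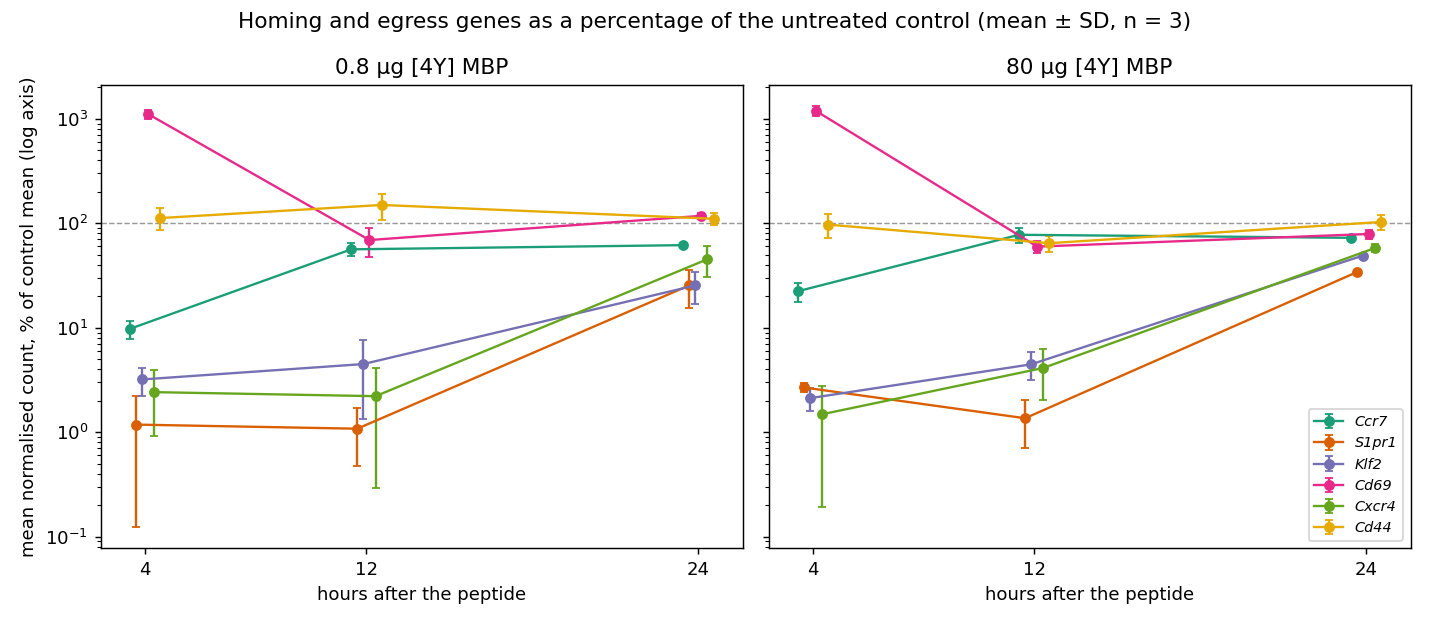
Mean normalised count of each gene as a percentage of the control mean (dashed line at 100), on a log axis, against hours after the peptide, for 0.8 μg (left) and 80 μg (right). Bars are the SD over 3 mice; points are shifted slightly sideways. Cd69 falls from over 1000% at 4 h to under 100% at 12 h, while S1pr1, Klf2 and Cxcr4 rise between 12 and 24 h.

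The second question was between which times each gene moved. From 4 to 12 h, 2 of 6 genes were called with 0.8 μg and 3 of 6 with 80 μg, against 20.5% and 24.8% of all genes tested. Ccr7 rose (shrunken log2 fold change 2.51 with 0.8 μg and 1.79 with 80 μg, SE 0.16 and 0.15, DESeq2 adjusted p = 1.9e-51 and 2.2e-31). Cd69 fell (-3.97 and -4.30, SE 0.15, DESeq2 adjusted p = 1.8e-147 and 1.5e-171). The third call with 80 μg was Klf2 (1.02, SE 0.40, DESeq2 adjusted p = 0.025), and it was lost without 80 μg 4 h replicate 1 (0.93, adjusted p = 0.073) or replicate 3 (0.83, adjusted p = 0.11) and without 80 μg 12 h replicate 1 (1.05, adjusted p = 0.059) or replicate 3 (0.82, adjusted p = 0.14). S1pr1 did not pass between these times (-0.15 with 0.8 μg, adjusted p = 0.84, and -0.92 with 80 μg, adjusted p = 0.081). With 80 μg it was called lower by edgeR (-1.0, adjusted p = 0.019) and without 80 μg 12 h replicate 1 (-1.25, adjusted p = 0.020). Cxcr4, at 15 counts or fewer per group, did not pass with either dose (adjusted p = 0.95 and 0.18).

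From 12 to 24 h the same 3 genes were called with both doses, against 26.6% and 27.2% of all genes tested, and each rose. By adjusted p alone, 4 and 5 of the 6 passed, against 44% and 44.7% of all genes. S1pr1 rose by 4.30 with 0.8 μg and 4.42 with 80 μg on the shrunken log2 scale (SE 0.44 and 0.43, DESeq2 adjusted p = 9.4e-21 and 3.9e-23). Klf2 rose by 2.42 and 3.33 (SE 0.38, DESeq2 adjusted p = 2.1e-09 and 2.9e-17), and by 3.13 with 0.8 μg without 12 h replicate 3 (adjusted p = 3.3e-20). Cxcr4 rose by 3.88 and 3.58 (SE 0.58 and 0.53, DESeq2 adjusted p = 2.8e-09 and 3.3e-10). Ccr7 had values of 0.13 and -0.10 (adjusted p = 0.50 and 0.63), so its way back lay between 4 and 12 h, while S1pr1, Klf2 and Cxcr4 rose between 12 and 24 h with both doses. Klf2 was also called higher from 4 to 12 h with 80 μg, a call that was lost when single libraries were left out, as given above. Cd69 was higher at 24 h than at 12 h by less than the limit (0.75 and 0.40, DESeq2 adjusted p = 1.3e-05 and 0.032), and without 0.8 μg 12 h replicate 2 the first of these was called (1.03, adjusted p = 3.5e-09). Cd44 was higher at 24 h with 80 μg (0.67, DESeq2 adjusted p = 0.010) and had a value of -0.44 with 0.8 μg (adjusted p = 0.10).

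The ranks of the 7 groups describe the same courses. For S1pr1 and Klf2 the control was highest, then both groups at 24 h, then the 4 groups at 4 and 12 h, whose neighbours mostly overlapped. For Ccr7 the order was control, 80 μg at 12 h, 80 μg at 24 h, 0.8 μg at 24 h, 0.8 μg at 12 h, 80 μg at 4 h and 0.8 μg at 4 h, where 80 μg at 12 and 24 h overlapped, as did 0.8 μg at 24 and 12 h. For Cd44 every neighbour in the order overlapped the next. Over the 21 libraries, in the deposited regularised log values, Pearson's r was 0.95 between Klf2 and Cxcr4, 0.93 between S1pr1 and Klf2, 0.92 between S1pr1 and Cxcr4 and -0.89 between Ccr7 and Cd69. Within the 18 immunised libraries these were 0.95, 0.89, 0.92 and -0.91. These values describe groups of 3 libraries that share dose, time and sort gate, and are not 21 independent points.

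The third question was whether the dose mattered. Between 80 and 0.8 μg, 1 of 6 genes was called at 4 h, 1 of 6 at 12 h and none at 24 h, against 5.85%, 2.79% and 1.56% of all genes tested. By adjusted p alone, with no fold change limit, 1, 2 and 1 of the 6 genes passed in DESeq2, against 12%, 6.27% and 5.93% of all genes, and edgeR's test with the fold change limit gave 0 at 24 h as well. Without adjustment, 2 genes, Klf2 and Cd69, were under 0.05 in DESeq2 at 24 h.

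Ccr7 was the call at 4 h and was higher with 80 μg (274 ± 58.4 against 120 ± 23.6 normalised counts, SD, n = 3, shrunken log2 fold change 1.18, SE 0.17, DESeq2 adjusted p = 8.8e-11). It was higher in all 3 libraries with 80 μg, so the larger dose went with the smaller fall. The summed myeloid markers (lower with 80 μg) and Foxp3 (10 and 55 counts with 0.8 and 80 μg) did not overlap between these groups either, and their part in the values of Ccr7 was not tested. The same direction held by less than the limit at 12 h (951 ± 165 against 690 ± 98.4, 0.46, SE 0.14, DESeq2 adjusted p = 0.028), which did not pass without 0.8 μg 12 h replicate 3 (0.35, adjusted p = 0.16), and at 24 h the value was 0.23 (SE 0.14, adjusted p = 0.43). The dose effect itself differed between times, with a DESeq2 likelihood ratio test of dose by time of adjusted p = 0.0024, in a test that 10.4% of all genes passed. It was smaller by 0.73 log2 units at 12 h than at 4 h (log2 difference -0.73, SE 0.22, DESeq2 adjusted p = 0.020, 7.14% of all genes passing) and by 0.96 at 24 h than at 4 h (-0.96, SE 0.22, adjusted p = 0.00062, 7.18% of all genes passing). The first of these did not pass without any one of several libraries, with adjusted p from 0.061 to 0.098 without 0.8 μg 4 h replicate 1 or 2, 80 μg 4 h replicate 1 or 3, 0.8 μg 12 h replicate 1 or 2 or 80 μg 12 h replicate 3, and values from -0.67 to -0.62.

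Cd44 was the call at 12 h and was lower with 80 μg (109 ± 19.7 against 252 ± 72.5 normalised counts, SD, n = 3, shrunken log2 fold change -1.20, SE 0.23, DESeq2 adjusted p = 1.2e-05). All 3 libraries with 80 μg were under all 3 with 0.8 μg. Without 0.8 μg replicate 3, the library that stood apart, the value was -1.41 (DESeq2 adjusted p = 6.9e-08). Markers differed in the same groups. The summed CD4+ T cell markers were 1310 to 1419 CPM with 0.8 μg and 1584 to 1681 with 80 μg. Cd8a, a CD8 T cell marker, had 169 counts (14.3 to 17.8 CPM) with 0.8 μg and 13 counts (0.807 to 1.74 CPM) with 80 μg, and Ikzf2 had 1256 and 423 counts. Foxp3 had 41 and 80 counts, and the part of these cells in the values of Cd44 was not tested. At 4 h the value was -0.21 (SE 0.23, adjusted p = 0.69) and at 24 h it was -0.09 (SE 0.23, adjusted p = 0.90), with 95% intervals before shrinkage of -0.67 to 0.24 and -0.55 to 0.35. The dose effect differed over time (likelihood ratio test, DESeq2 adjusted p = 0.017), which did not pass without 0.8 μg 12 h replicate 1 (adjusted p = 0.088), 0.8 μg 12 h replicate 2 (adjusted p = 0.12) or 80 μg 12 h replicate 3 (adjusted p = 0.092). It was 1.01 log2 units lower at 12 h than at 4 h (log2 difference -1.01, SE 0.33, DESeq2 adjusted p = 0.036) and 1.12 higher at 24 h than at 12 h (SE 0.33, adjusted p = 0.028, 2.64% of all genes passing). The contrast of 12 and 4 h did not pass without 0.8 μg 4 h replicate 3, 80 μg 4 h replicate 1 or 2, 0.8 μg 12 h replicate 1 or 2, or 80 μg 12 h replicate 2 or 3 (adjusted p from 0.055 to 0.16). That of 24 and 12 h did not pass without 0.8 μg 12 h replicate 1 or 2, 80 μg 12 h replicate 2 or 3, 0.8 μg 24 h replicate 2, or 80 μg 24 h replicate 2 or 3 (adjusted p from 0.050 to 0.13), nor under total-count scaling (1.07, adjusted p = 0.078) or after thinning to the smallest library (1.07, adjusted p = 0.077).

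Cd69 did not differ between doses beyond its spread at 4 h (shrunken log2 fold change 0.10, SE 0.14, DESeq2 adjusted p = 0.77), where the 95% interval before shrinkage ran from -0.17 to 0.37. At 24 h it was lower with 80 μg in all 3 libraries (159 ± 16.0 against 237 ± 17.3 normalised counts, SD, n = 3, -0.58, SE 0.16, DESeq2 adjusted p = 0.0068), under the fold change limit. That adjusted p was 0.062 without 0.8 μg 24 h replicate 2 and 0.079 without 80 μg 24 h replicate 2. The change in the dose effect from 4 to 24 h was -0.68 (SE 0.21, DESeq2 adjusted p = 0.021), and it did not pass without 0.8 μg 4 h replicate 1 or 3, 80 μg 4 h replicate 1, 0.8 μg 24 h replicate 2 or 80 μg 24 h replicate 2 (adjusted p from 0.052 to 0.083), nor after thinning to the smallest library (-0.66, adjusted p = 0.054). The test over all 3 times gave an adjusted p of 0.056 in DESeq2. It passed under total-count scaling (adjusted p = 0.046) and without 0.8 μg 4 h replicate 2, any one of the 0.8 μg 12 h libraries or 80 μg 12 h replicate 3 (adjusted p from 0.0069 to 0.048).

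Klf2, S1pr1 and Cxcr4 were not called between doses at any time. Klf2 at 24 h had 962 ± 38.1 normalised counts with 80 μg and 497 ± 170 with 0.8 μg (SD, n = 3), a shrunken log2 fold change of 0.92 (SE 0.37, DESeq2 adjusted p = 0.14). Its groups did not overlap, and the adjusted p was 0.0023 in edgeR (0.98) and 0.040 with the replicate number as a block in DESeq2 (0.96), still under the fold change limit. With only the compared groups in the DESeq2 fit the adjusted p was 1.7e-05 (0.83), also under that limit. Under TMM and total-count scaling it was 0.12 and 0.20. Without 0.8 μg 24 h replicate 3 the value was 1.24 (DESeq2 adjusted p = 0.051). Leaving out any other library of these groups gave an adjusted p of 0.26 to 0.39. The dose by time test of Klf2 had an adjusted p of 0.20 in DESeq2, 0.0080 in edgeR, and 0.035 and 0.0018 in DESeq2 without replicate 2 or replicate 3 of 0.8 μg at 12 h. Other markers also had no overlap between doses at 24 h. The summed B cell markers were higher with 80 μg, as Klf2 was, and the CD8 markers, Ikzf2, the NK cell markers (2.66 to 4.49 against 0 to 1.63 CPM) and the dendritic cell markers (0.264 to 1.18 against 0 CPM) were lower, as Cd69 was. Their part in the values of Klf2 and Cd69 was not tested. S1pr1 at 4 h had 35.6 ± 3.44 with 80 μg and 15.7 ± 14.1 with 0.8 μg (SD, n = 3), a value of 1.05 (SE 0.46, DESeq2 adjusted p = 0.13). Without 0.8 μg 4 h replicate 1, the library with 31.3, S1pr1 was called higher with 80 μg (1.84, DESeq2 adjusted p = 0.0019). Leaving out replicate 2 or replicate 3 of that group instead gave smaller values that were not called (0.63 and 0.82, DESeq2 adjusted p = 0.43 and 0.38). Cxcr4 had values of -0.49, 0.65 and 0.35 at 4, 12 and 24 h (SE 0.71, 0.64 and 0.44, adjusted p = 0.78, 0.68 and 0.78). Its 95% intervals before shrinkage were -2.56 to 1.18 at 4 h, -0.68 to 2.35 at 12 h and -0.55 to 1.28 at 24 h, on 5 to 15 counts per group at 4 and 12 h and 151 and 251 counts at 24 h. Dose differences within these intervals could not be told from none.

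**Figure D3:**
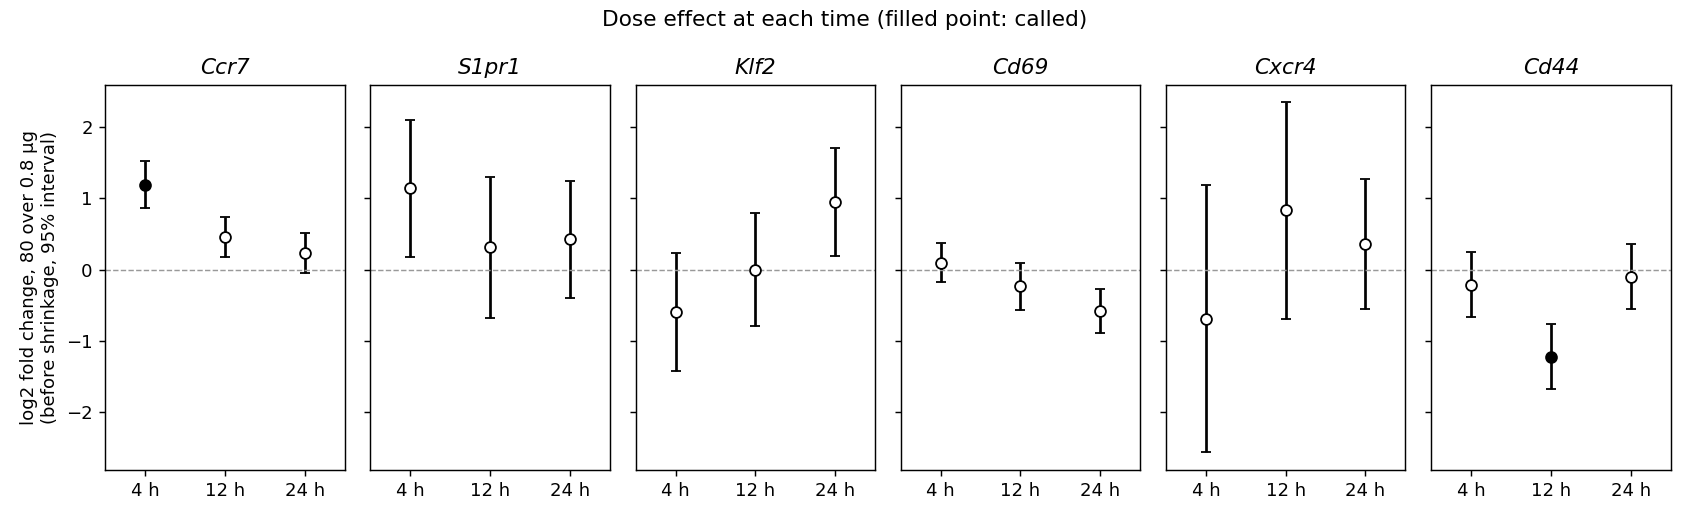
Log2 fold change of 80 over 0.8 μg before shrinkage for each gene at 4, 12 and 24 h, with its 95% interval. Filled points were called in DESeq2 (Ccr7 at 4 h and Cd44 at 12 h), open points were not, and the dashed line marks no difference.

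The rest of the homing and egress machinery was described with a list of 41 other genes in 5 roles. Against the control at 4 h, 24 of 38 tested genes were lower and 4 higher with 0.8 μg, and 24 lower and 6 higher with 80 μg. Their median shrunken log2 fold change was -1.81 and -1.80 with the 2 doses, beside -0.13 and -0.15 over all genes tested, of which 23.4% and 25.1% were called lower and 17.3% and 18.4% higher. At 12 h, 20 and 19 of 38 were lower and 3 and 3 higher, with medians of -1.25 and -1.15, where 20.5% and 20.1% of all genes were lower and 17.2% and 17.8% higher. At 24 h, 6 and 2 of 37 were lower and 4 and 4 higher, with medians of -0.12 and 0.19, where 5.84% and 7.91% of all genes were lower and 11.5% and 12.3% higher. From 12 to 24 h, 23 of 37 genes rose and 2 fell with 0.8 μg, and 20 of 38 rose and 1 fell with 80 μg, the step in which S1pr1, Klf2 and Cxcr4 rose. Of all genes tested, 17.1% and 16.7% rose in that step and 9.48% and 10.5% fell.

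**Figure D4:**
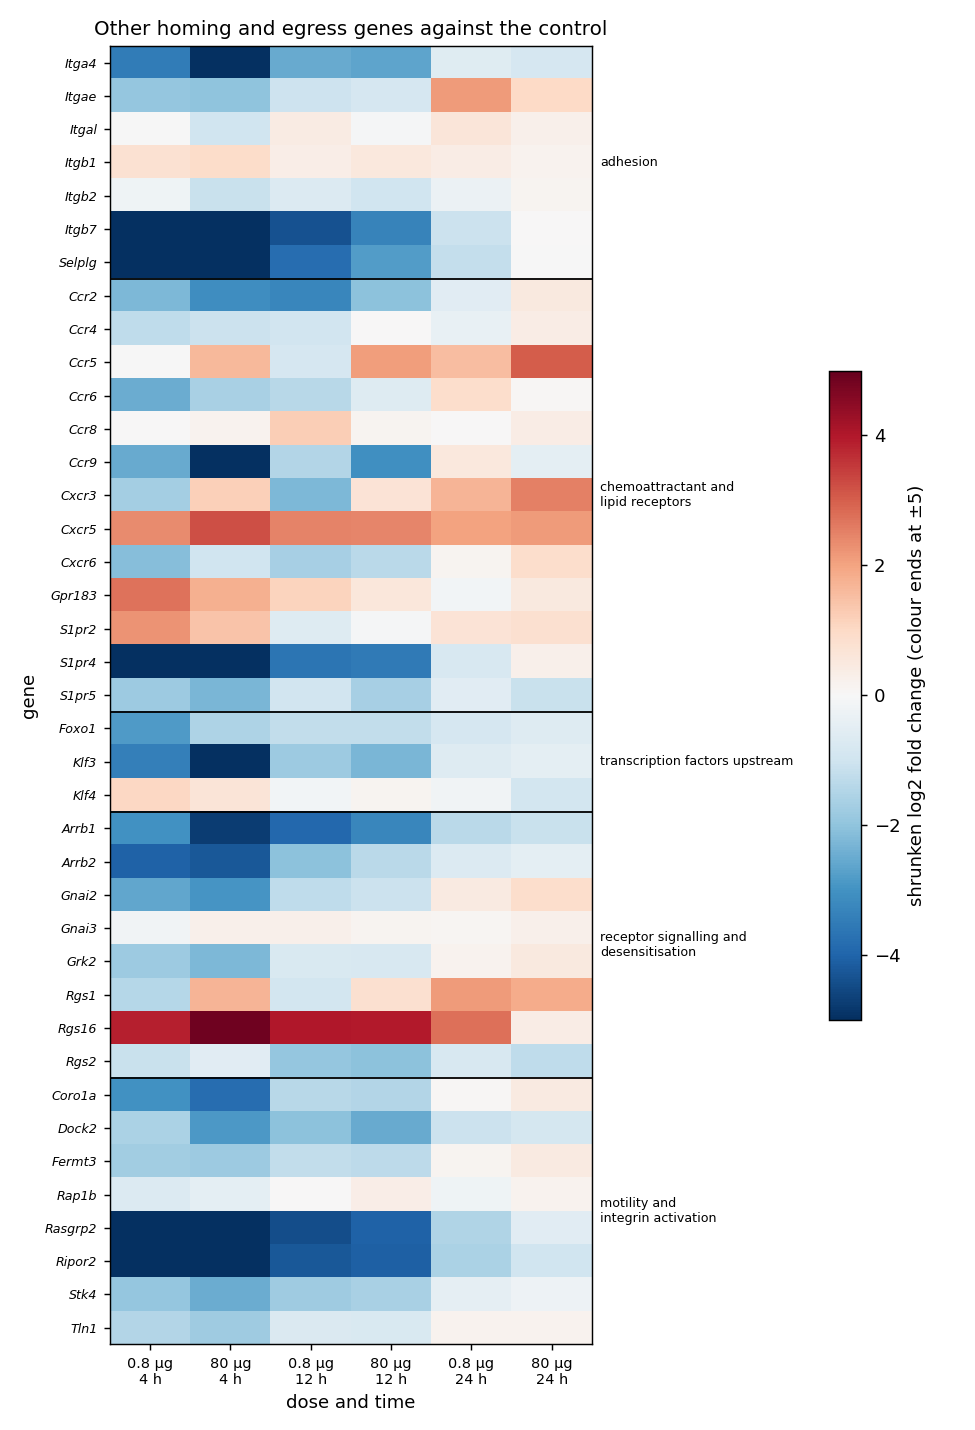
Shrunken log2 fold change against the control for the listed genes other than the 6, grouped by role, with the doses and times in columns. Blue is lower and red higher than the control, and the colour scale ends at 5 in either direction. Most rows are blue at 4 and 12 h and pale at 24 h, and Cxcr5, Gpr183, S1pr2 and Rgs16 are red at 4 h with both doses.

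Of the 7 adhesion genes, 3 were lower with 0.8 μg and 6 with 80 μg at 4 h, and 2 and 0 at 24 h. Selplg, the P-selectin ligand, and Itgb7, the integrin subunit for gut homing, were at 1.94% to 14.2% of the control at 4 and 12 h. At 24 h Selplg was at 43.9% with 0.8 μg and 99.2% with 80 μg, and Itgb7 at 47.5% and 102%. Both were called higher with 80 μg at 24 h (shrunken log2 fold change 1.17 and 1.10, DESeq2 adjusted p = 7.1e-21 and 1.8e-08), where Klf2 had 0.92 and was not called.

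Of the 15 listed chemoattractant and lipid receptors, 12 could be tested against the control at 4 h, and 6 and 5 were lower and 3 and 4 higher with 0.8 and 80 μg. S1pr4, a relative of S1pr1, was at 1.81% and 1.14% of the control at 4 h, and its shares were 7.86% and 8.25% at 12 h and 57.2% and 121% at 24 h. It was called higher from 4 to 12 h with both doses (1.88 and 2.59, DESeq2 adjusted p = 3.2e-06 and 3.5e-09), a step in which S1pr1 did not pass. At 24 h it was higher with 80 μg (1.07, DESeq2 adjusted p = 2.3e-07), where S1pr1 had a value of 0.41 (adjusted p = 0.69). Gpr183, the oxysterol receptor EBI2 that positions activated T cells at the edge of the T zone, went the other way, at 666% and 343% of the control at 4 h, 217% and 147% at 12 h and 92.0% and 141% at 24 h. Cxcr5, the receptor for CXCL13 and B cell follicles, rose from 16.2 normalised counts in the control to 87.7 and 162 at 4 h, and stayed at 69.4 and 73.6 at 24 h (called higher in all 6 comparisons with the control, shrunken log2 fold change 2.03 to 3.24). Cxcr3, the receptor of inflamed tissue homing, was higher with 80 μg than with 0.8 μg at 4 h (65.2 against 7.91 normalised counts, 2.91, DESeq2 adjusted p = 1.1e-09). Its means at 12 h were 44.1 and 4.68 (2.93, DESeq2 adjusted p = 2.5e-08). Ccr9, the gut homing receptor, was lower with 80 μg at 4 h (0.609 against 10.5 normalised counts, -2.68, DESeq2 adjusted p = 0.0078).

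Of the 3 upstream transcription factors, Foxo1 and Klf3 were called lower at 4 and 12 h with both doses. Foxo1, the forkhead factor that drives Klf2 in resting T cells and that is named here after its values were seen, was at 14.1% of the control with 0.8 μg and 33.9% with 80 μg at 4 h, higher with 80 μg (1.26, SE 0.12, DESeq2 adjusted p = 5.5e-22), as Ccr7 was. Klf3, a relative of Klf2, was at 9.25% and 2.79%, lower with 80 μg (-1.68, SE 0.19, DESeq2 adjusted p = 6.3e-17), and with 80 μg it rose from 4 to 12 h (2.80, adjusted p = 5.9e-52). Foxo1 and Klf3 thus differed between doses at 4 h in opposite directions.

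Among the 8 genes of receptor signalling and desensitisation, 6 and 4 were lower at 4 h and 1 and 2 higher with 0.8 and 80 μg. Arrb1 and Arrb2, the arrestins that uncouple chemokine receptors, were at 11.7% and 5.83% of the control with 0.8 μg and at 3.11% and 4.96% with 80 μg at 4 h. Arrb1 was also lower with 80 than with 0.8 μg at 4 h (-1.70, DESeq2 adjusted p = 0.0048). Rgs1, which dampens chemokine receptor signals, was higher with 80 μg at 4 h (65.6 against 6.35 normalised counts, 3.13, DESeq2 adjusted p = 3.0e-09). Its means at 12 h were 33.4 and 9.71 (1.71, DESeq2 adjusted p = 0.0032). At 24 h the Rgs1 means were 72.8 with 80 μg and 87.5 with 0.8 μg, with no call (-0.26, DESeq2 adjusted p = 0.81). Of the 8 genes of motility and integrin activation, 7 were lower at 4 h with either dose, and 3 and 0 at 24 h with 0.8 and 80 μg. Rasgrp2, which activates Rap1 for integrin function, was at 2.46% and 1.04% of the control at 4 h and 35.4% and 67.4% at 24 h. Ripor2, an inhibitor of RhoA, was at 2.74% and 0.827% at 4 h and 33.4% and 49.8% at 24 h.

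The genes whose course was most like each of the 6 over the 21 libraries were sought among the 6632 genes that averaged 50 or more normalised counts, in the deposited regularised log values. For Ccr7 they were Fam3c, Fli1 and Cyfip2 (Pearson's r = 0.96, 0.95 and 0.95). For S1pr1 they were Tsc22d3, Klf13 and Hmgb1-ps8 (0.98, 0.98 and 0.98), and for Klf2 Nsd3, Akap13 and Stk38 (0.98, 0.98 and 0.98). The nearest to Cd69 were Tnfaip3, H13 and Gm43430 (0.98, 0.98 and 0.97), and to Cxcr4 Smpdl3a, Gm26740 and 2810013P06Rik (0.97, 0.97 and 0.97). Cd44 had no such close neighbour, with Ap3s2 and Gid8 at 0.67 and 0.66. These are descriptions over 7 groups, with no test.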

How the data were processed

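The deposited values were read counts per gene. Per the study's methods, the authors trimmed the reads with Bbduk, aligned them with STAR 2.5.2a to GRCm38 (mm10) and counted them with HTSeq, while the sources used here do not give the strand setting or say if molecular identifiers were used. A second deposited table held regularised log2 values that the authors made with DESeq2, used here for gene names and correlations only. The 6 genes and the other lists were chosen with earlier results of these data known. A listed gene and a gene of like course are not reported here.

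Genes with under 10 counts over the 21 libraries were dropped, as the study did. DESeq2 1.42.0 in R 4.3.3 was fitted with 1 term for the 7 groups over all libraries, with its own size factors, normal-prior shrinkage and Benjamini-Hochberg adjustment over all genes tested. A gene was called at an adjusted p under 0.05 and an absolute shrunken log2 fold change over 1. The p-values rest on a spread between mice that was estimated for each gene over all groups in the fit. They therefore do not measure the spread of the compared groups alone. Differences of dose effects between times were contrasts of the same fit without shrinkage, and dose by time was a likelihood ratio test on the 18 immunised libraries, both called at an adjusted p under 0.05 alone. Library totals of 2352800 to 6244279 counts limit the precision of low genes, and a library with 0 counts may hold up to 3 (counting error only). Counts on 3′ ends need no length correction, and no level was compared between genes. Of the listed genes, up to 2 called genes in each direction per comparison were to be named if their average reached 20 normalised counts. Gene positions are those of the GRCm38 annotation, in which no exon of the 6 genes overlapped another gene. Alternatives were edgeR 4.0.16, TMM and total-count scaling, no filter, no shrinkage, no fold change limit, the compared groups alone, thinning to the smallest library, the replicate number as a block and leaving out each library. The fitting steps were tested on simulated data.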

Additional observations from a re-analysis of the deposited data

Results flagged for a closer look

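These results stood out because the effect of dose differed between times by a test of that difference in DESeq2. For Ccr7 the test of dose by time gave an adjusted p of 0.0024, with a log2 difference in the dose effect of -0.73 between 12 and 4 h (adjusted p = 0.020) and of -0.96 between 24 and 4 h (adjusted p = 0.00062). For Cd44 it gave an adjusted p of 0.017, with -1.01 between 12 and 4 h (adjusted p = 0.036) and 1.12 between 24 and 12 h (adjusted p = 0.028), the latter lost under total-count scaling and after thinning. For Cd69 the dose effect differed by -0.68 between 24 and 4 h (adjusted p = 0.021), which was lost after thinning. With groups of 3 libraries, no test was made for a gene of a single library far from the rest of its group.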

How the results depend on the processing

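The counts of the 6 genes called were within 1.5 times of the main count in 128 of 141 results under another setting. With no fold change limit, 2 and 1 were called between doses at 12 and 24 h, 6 and 6 against the control at 12 h, 3 at 24 h with 80 μg and 5 from 12 to 24 h with 80 μg. Of all genes tested, the shares in the same order were 6.27%, 5.93%, 53.1%, 52.7%, 39.1% and 44.7%. At 24 h with 80 μg, 2 were called against the control under edgeR, total-count scaling, no shrinkage and the compared groups alone, in each case S1pr1 and Klf2. The dose effect differed between 24 and 4 h for 1 gene after thinning, where Cd69 had an adjusted p of 0.054, and between 24 and 12 h for 0 genes under total-count scaling and after thinning, where Cd44 had an adjusted p of 0.078 and 0.077. Klf2 differed between 24 and 4 h under edgeR (1.57, adjusted p = 0.0050) and with the block (1.55, adjusted p = 0.033). Values near 0 that were not called changed sign for Klf2 between doses at 12 h after thinning (-0.057) and in the compared groups alone (-0.0077), for Cd44 in the dose effect of 24 against 4 h after thinning (-0.059) and, under total-count scaling, for Cd44 against the control at 24 h with 80 μg (-0.18), S1pr1 and Cxcr4 from 4 to 12 h with 0.8 μg (0.028 and 0.032) and Ccr7 from 12 to 24 h with 0.8 μg (-0.010). Total-count scaling shifted the median of all genes by -0.236 in the comparison of 80 μg at 24 h with the control, and the share of calls that were higher from 60.9% to 41.4%.

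Without 1 library, the called genes were 1 to 2 between doses at 4 h, 1 to 2 against the control at 24 h with 80 μg, 2 to 4 for dose by time, 0 to 2, 1 to 3 and 0 to 1 for the dose effect of 12 against 4 h, 24 against 4 h and 24 against 12 h. The share of all genes called was computed in the main fit only, so counts under other fits have no such share beside them. Values that were not called and changed sign ranged, between doses, from -0.0040 to 0.18 for Cd69 and -0.91 to 0.039 for Cxcr4 at 4 h, from -0.042 to 0.68 for S1pr1, -0.38 to 0.67 for Klf2 and -0.40 to 0.054 for Cd69 at 12 h and from -0.22 to 0.0098 for Cd44 at 24 h. Against the control Cd44 ranged from -0.15 to 0.16 at 4 h and -0.073 to 0.15 at 24 h with 80 μg. From 4 to 12 h with 0.8 μg, S1pr1 ranged from -0.60 to 0.61, Klf2 from -0.21 to 0.83 and Cxcr4 from -0.52 to 0.42, and Ccr7 with 80 μg from 12 to 24 h from -0.20 to 0.045. In the dose effects of 24 against 12 h, S1pr1 ranged from -0.43 to 0.55 and Cxcr4 from -1.07 to 0.10, and in that of 24 against 4 h Cd44 from -0.084 to 0.30. The cause was not tested.

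Over genes, mice with the same replicate number did not deviate together in every pair (correlation of their deviations from the group means, -0.252 to 0.252), so the numbers were not taken as pairs. Replicate 3 had the lowest summed myeloid markers in 7 of 7 groups and the lowest erythroid ones in 6. With the replicate block, the call of Cxcr4 at 24 h with 0.8 μg was lost (-1.10, adjusted p = 0.053), Klf2 gained its difference between 24 and 4 h, and no other of these results changed its call.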
